A study of Mus musculus with 16 samples.

Results

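Cytosolic ribosomal protein genes encode the proteins of the small (Rps) and large (Rpl) subunit of the ribosome. They were picked here as the symbols that begin with Rps or Rpl and a digit in the authors' deposited table, leaving out the Rps6k kinases. The rule found 138 of the 8552 genes that the table names. Of these, 27 encode small subunit proteins and 41 large subunit proteins, 4 are paralogs or retrogenes (Rpl22l1, Rpl36al, Rpl37rt and Rps27rt), and 66 are pseudogenes, among them Rps3a2 and Rps3a3, whose symbols do not show it. The table names only genes with a log2 fold change below 0 in Th17 cells lacking Sin3A, so the members were selected on that contrast. It is described here without a test. The names and the count rows of the table are in different orders, and the counts had lost their decimal point. Reads were therefore restored, and each name was joined to its row through the authors' log2 fold change. All 68 subunit genes and the 4 paralogs or retrogenes were joined and had settled values. Of the 66 pseudogenes, 55 were joined, 49 of these were settled in the IL-7 groups and 46 passed the minimum mean of 10 normalized counts, which left 118 members for testing.

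The family is wider than the rule. Of 79 cytosolic ribosomal protein genes, 73 are named in the table (92.4%), while 47.9% of all table rows carry a name. A name reflects the contrast behind the choice, so this is not a separate result. Rplp0, Rplp1, Rplp2, Rpsa and Fau are named but fall outside the rule, and genes that are not named, among them Rps10, Rps19, Rpl8 and Rpl35, were not analysed here.

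The RNA came from purified CD4+ T cells of C57BL/6 J mice aged 2 months, all carrying Rosa26-CreERT2 +/- and Sin3A F/F, which is a Cre recombinase that tamoxifen activates and Sin3a alleles that it can delete. Sin3A holds together a corepressor complex that contains histone deacetylases. The IL-7 sufficient group was kept for 6 days with interleukin-7, a survival cytokine, without tamoxifen, and the IL-7 deficient group was kept the same way with tamoxifen. The Th17 sufficient and Th17 deficient groups then spent 3 further days in conditions that drive cells to the interleukin-17-producing Th17 state. Every group has 4 libraries, named in the labels with a stem per group (BASAL, BASALTAM, D3 and D3TAM, in the order above) and 1 of 4 recurring numbers. The 4 libraries that share the number of BASAL959 are given as female and the others as male. Whether equal numbers mean equal mice, or different numbers different mice, is not stated. The sexes show that each group holds RNA from more than 1 mouse, but p-values may still measure technical spread in part. All 4 groups carry the Cre and the floxed alleles, and tamoxifen and the deletion go together in every deficient library, so their effects cannot be told apart.

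Ribosomal protein messages are among the most abundant in growing cells. Most begin with a run of pyrimidines at the 5′ end (a TOP message), through which the mTORC1 kinase adjusts their translation, and the proteins are made in near-equal amounts because each ribosome holds a copy of nearly every one. Resting T cells hold few ribosomes and make many more once they are activated to divide. Several ribosomal proteins have further roles: Rpl22 is needed for the development of alpha-beta T cells, and its paralog Rpl22l1 is held down by Rpl22.

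Libraries held 19757730 to 28624131 restored reads. Sin3a had 2213 to 2761 normalized counts in the IL-7 sufficient and 2148 to 2358 in the IL-7 deficient libraries, and 1892 to 2271 in the Th17 sufficient and 1727 to 1827 in the Th17 deficient libraries. Counts over the whole gene can miss a deletion of a few exons, and the exons are not named in the labels, so this checks the deletion only in part. The 9 T cell markers with settled values, of 13, lay between 1794 and 21421 normalized counts in every library. Il17a, the defining Th17 cytokine, lay at 0 to 4.30 normalized counts in the IL-7 sufficient and 0.880 to 0.988 in the IL-7 deficient libraries. It reached 1072 to 3929 in the Th17 sufficient and 133 to 349.7 in the Th17 deficient libraries. Of 15 markers of other cell types only Cd8b1 and Cd79a had settled values. Their summed level was 475 to 649.8 in the IL-7 sufficient, 379 to 504 in the IL-7 deficient, 176 to 218 in the Th17 sufficient and 98.3 to 135 normalized counts in the Th17 deficient group, so it was lower after polarization. Its part in the polarization results was not tested. Fewer cells of a type and less RNA per cell cannot be told apart in such bulk samples.

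Sequences around the annotated start of transcription are shown for members with large changes and for Rpl22l1, from 40 bases before the start to the 20 bases that begin there, from RefSeq on GRCm38.p6. Rps27 and Rps7 fell on polarization, Rps2, Rpl41, Rpl13a, Rps12, Rpl28 and Rpl7a rose, and Rpl22l1 moved in opposite directions in sufficient and deficient cells. Capitals mark runs of at least 8 pyrimidines (C or T) and the letters TATAAA.
Rps27 (chr3:90213629-90213688, minus strand): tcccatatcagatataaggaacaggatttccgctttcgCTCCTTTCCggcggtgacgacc
Rps7 (chr12:28635934-28635993, minus strand): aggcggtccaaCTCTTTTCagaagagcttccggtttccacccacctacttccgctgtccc
Rps2 (chr17:24720023-24720082, plus strand): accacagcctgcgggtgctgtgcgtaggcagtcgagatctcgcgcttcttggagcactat
Rpl41 (chr10:128549149-128549208, minus strand): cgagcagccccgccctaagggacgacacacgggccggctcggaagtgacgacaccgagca
Rpl13a (chr7:45128726-45128785, minus strand): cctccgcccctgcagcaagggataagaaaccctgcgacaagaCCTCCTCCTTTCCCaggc
Rps12 (chr10:23787190-23787249, minus strand): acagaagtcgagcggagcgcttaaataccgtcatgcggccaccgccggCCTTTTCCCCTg
Rpl28 (chr7:4792925-4792984, plus strand): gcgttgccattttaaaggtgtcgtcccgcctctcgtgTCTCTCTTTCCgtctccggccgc
Rpl7a (chr2:26910767-26910826, plus strand): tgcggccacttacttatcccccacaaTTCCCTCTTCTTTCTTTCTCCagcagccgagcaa
Rpl22l1 (chr3:28805468-28805527, plus strand): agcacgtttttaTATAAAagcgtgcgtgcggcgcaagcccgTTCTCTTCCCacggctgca

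RefSeq promoter windows were matched to 51 of the 68 subunit genes. Within 25 bases of the start, 24 of the 51 (47.1%) held a run of at least 8 pyrimidines on the gene's strand, against 19.4% of the 27025 promoters in the table. In the full window, from 250 bases before to 50 after the start, and on both strands, CCGGAA was present in 25 of the 51 (49.0%) and in 15.2% of all promoters. AAGATGG was present in 8 (15.7%) against 6.48% of all, and TATAAA in 4 (7.84%) against 14.2%. The motifs were counted separately and overlaps were allowed. Among members that rose on polarization of sufficient cells, 13 of 21 with a window held the pyrimidine run, and among those that fell, 4 of 12 did. CCGGAA was held by 13 of the 21 and 4 of the 12 as well, AAGATGG by 3 and 4, and TATAAA by 2 and 1. None of these splits was tested. The annotated start can lie off the start used in T cells, so the absence of a run says only that these letters are not in the window.

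In Th17 cells, the contrast used for the choice, all 68 subunit genes had a lower mean log2 level in deficient than in sufficient cells, as the choice requires. Their log2 differences ran from -0.78 for Rpl13a to -0.018 for Rps2, with a median of -0.23. Over the 6129 named rows tested, which share the same choice, the median was -0.39. The median was -0.24 for the 27 small subunit genes and -0.23 for the 41 large subunit genes, and the 2 were not compared by a test. Rps2 was the member nearest to the limit of 0, and genes beyond it carry no name.

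Loss of Sin3A in cells kept in IL-7 did not enter the choice of members, and this comparison asks whether ribosomal protein messages differ before polarization. None of the 68 subunit genes passed limma at an adjusted p of 0.05, while 4.52% of the 13218 rows tested and 4.23% of the named rows did. At an unadjusted p under 0.05, 4 of the 68 lay past the threshold with limma and 4 with limma voom, 2 in each direction in both fits. With limma, 2450 of the 13218 rows tested and 1100 of the 6129 named rows lay past it. The median log2 difference was 0.0099, against -0.044 for named rows and 0.0044 for all rows, and 39 genes had a positive and 29 a negative difference. For the 67 subunit genes with a mean of at least 1000 normalized counts, every 95% confidence interval lay between -0.35 and 0.37 on the log2 scale. Differences beyond that size are outside the intervals.

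Named genes of this comparison were those with the greatest and the least estimated difference, and per-library values are given in the order of the numbers throughout (BASAL955, BASAL957, BASAL959 and BASAL960 for the IL-7 sufficient group, and likewise for the others). Rpl24, a large subunit protein at a bridge to the small subunit, had 101, 65.4, 94.4 and 84.5 normalized counts in the IL-7 sufficient and 48.5, 61.6, 57.8 and 59.3 in the IL-7 deficient libraries. The deficient libraries all lay below the sufficient ones, but the level is far under that of every other subunit gene and the difference of -0.58 (SE 0.24) had an adjusted p of 0.18 in limma. Rpl10a, which forms a mobile stalk of the large subunit, had 14786, 14619, 13297 and 14328 in sufficient and 13209, 11903, 11771 and 12469 in deficient libraries. These groups did not overlap either, and the difference was -0.21 (SE 0.066, limma adjusted p = 0.0777). Rpl24 and Rpl10a were the 2 of 68 with all deficient libraries lower. No subunit gene had all of them higher. The same was seen in 10.2% and 3.82% of named rows.

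Rps24 and Rps27, both of the small subunit, had the most positive differences. Rps24, a gene mutated in Diamond-Blackfan anaemia, had 32278, 31705, 29118 and 36236 normalized counts in IL-7 sufficient and 37179, 38179.5, 33317 and 39159 in IL-7 deficient libraries (log2 difference 0.19, SE 0.083, limma adjusted p = 0.207). Rps27, a zinc finger protein, had 48142, 48102, 43619 and 47107 and 56185, 52648, 47263 and 53342 (0.16, SE 0.075, limma adjusted p = 0.255). In both genes BASAL959 and BASALTAM959 were the lowest libraries of their groups, and the groups overlapped. Between libraries of equal number, the deficient one was higher in 4 of 4 for each of these genes. Rpl3, near the peptidyl transferase centre, had 22658, 22306, 19613 and 25403 in sufficient and 20535, 19878, 18314 and 21738 in deficient libraries (-0.16, SE 0.089, limma adjusted p = 0.371), again with overlap between the groups and with the deficient library lower in 4 of 4 pairs of equal number. Rps24, Rps27 and Rpl3 were picked for their large differences, so this order within pairs is not a separate result. How often it occurs over all genes was not counted.

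At the other end, Rpl38, Rpl13 and Rpl15, all of the large subunit, had log2 differences of 0.0022, -0.00083 and 8.4e-05. Rpl38 had 7535, 7542, 6657 and 8519 normalized counts in IL-7 sufficient and 7607, 7699, 6884 and 8043 in IL-7 deficient libraries. Rpl13 had 16353, 17551, 16853 and 17783 and 17708, 18255, 15711 and 16898, and Rpl15 had 8075, 8208, 7419 and 9769 and 8350.03, 8178, 7651 and 9196. The spread within each group of these genes was far wider than the difference between groups.

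**Figure D1:**
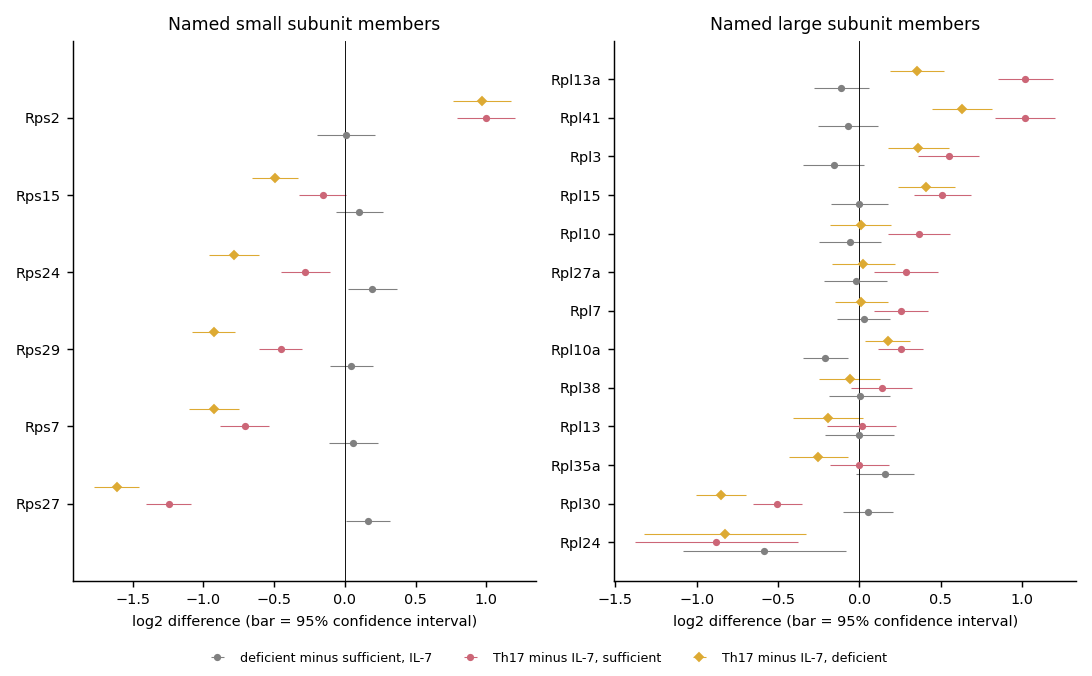
Log2 differences from limma of the subunit genes whose per-library values are given by the naming rule, small subunit on the left and large on the right, with 95% confidence intervals as bars, ordered by the change on polarization of sufficient cells. Grey points, for Sin3A loss in IL-7 cells, lie around 0 apart from Rpl24 (-0.58), while polarization spreads the genes from Rps27 at the bottom (-1.25 in sufficient and -1.61 in deficient cells) to Rps2, Rpl41 and Rpl13a at the top.

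Polarization of sufficient cells split the family: 26 of the 68 subunit genes rose and 18 fell (38.2% and 26.5%). Over the named rows tested, 39.9% rose and 37.2% fell, and over all rows 36.1% and 41.5%, so the share that rose is near the background. The Th17 sufficient libraries also entered the choice of members, and the 2 polarization comparisons are not independent of it. The median log2 change was 0.092 for the subunit genes and 0.026 for named rows. The changes were narrow beside those of other genes, with quartiles of -0.21 and 0.30 against -0.68 and 0.80. In 16 members all Th17 libraries lay above all IL-7 libraries, and in 11 all lay below (35.4% and 32.8% of named rows).

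The 2 subunits did not move alike by count. Of 27 small subunit genes, 6 rose and 11 fell (median -0.070), and of 41 large subunit genes, 20 rose and 7 fell (median 0.17). Of the 5 named genes outside the rule, Rpsa (0.56), Fau (0.21) and Rplp0 (0.18) rose, and Rplp1 and Rplp2 were not called. With these added, 8 of 29 small subunit genes rose and 11 fell (median -0.039). Of 44 large subunit genes, 21 rose and 7 fell (median 0.15). This difference between subunits was not tested. The small subunit genes that fell included Rps7, Rps13, Rps15a, Rps16, Rps21, Rps24, Rps27, Rps28 and Rps29. The 6 small subunit members of the rule that rose were Rps2, Rps12, Rps18, Rps25, Rps26 and Rps27a. Rps27a carries a ubiquitin fused to its ribosomal part.

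Rps27 had the greatest fall of the subunit genes. Its 48142, 48102, 43619 and 47107 normalized counts in the IL-7 sufficient libraries went to 19613, 18282, 19217 and 21839 in the Th17 sufficient libraries, with no overlap, a log2 change of -1.25 (SE 0.075, limma adjusted p = 7.16e-11). Rps7 fell from 28294, 27636, 25305 and 29458 to 18022, 14551, 16534 and 18784, by 0.71 on the log2 scale (SE 0.083, limma adjusted p = 3.61e-07). Rps29, a zinc finger protein of the small subunit head, fell from 21538, 22535, 21809.7 and 23191 to 15701, 14912, 17744 and 16830.2 (log2 change -0.45, SE 0.072, limma adjusted p = 1.64e-05). All 4 polarized libraries of each of these genes lay below the IL-7 libraries.

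Rps2, which lines the channel where messages enter, moved the other way within the same subunit. It had 15666, 16678, 15052 and 18858 normalized counts in IL-7 sufficient and 30234, 31643, 36825 and 33143 in Th17 sufficient libraries, a log2 change of 0.99 (SE 0.10, limma adjusted p = 3.68e-08). Rps12 rose with a log2 change of 0.68 and Rps26 with 0.56.

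Among large subunit genes Rpl41 and Rpl13a rose most. Rpl41, the shortest ribosomal protein, went from 20725, 20994, 18928 and 23738 to 42745, 39811, 45646 and 42426 normalized counts, a log2 change of 1.02 (SE 0.088, limma adjusted p = 7.7e-09). Rpl13a, which also acts in an interferon-gamma-dependent block of translation in myeloid cells, went from 925, 959.5, 984 and 989.9 to 1732, 1842, 1956 and 2340.3 (log2 change 1.02, SE 0.08, limma adjusted p = 2.13e-09). In both genes each polarized library lay above each IL-7 library. Rpl28 (0.63), Rpl7a (0.60), Rpl3 (0.55, 31594, 29591, 34461 and 35929.7 counts in the Th17 sufficient libraries), Rpl29, Rpl15, Rpl14, Rpl22, Rpl4 and Rpl27 followed.

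The large subunit genes that fell included Rpl5, Rpl12, Rpl21, Rpl24 and Rpl30. Rpl30 had 15536, 15917, 13969 and 15803 normalized counts in the IL-7 sufficient and 10239.9, 9915, 11108 and 11960.03 in the Th17 sufficient libraries (-0.50, SE 0.072, limma adjusted p = 4.81e-06). Rpl24 had 36.5, 36.8, 43.5 and 75.6 in the Th17 sufficient libraries, a log2 change of -0.88 (SE 0.24, limma adjusted p = 0.00259), and D3960 overlapped the IL-7 values. Rpl35a was the subunit gene with the least change: 9248, 9218, 8841 and 10542 before and 9509, 8282, 9363 and 10779 after polarization (7.8e-05, 95% confidence interval -0.18 to 0.18).

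**Figure D2:**
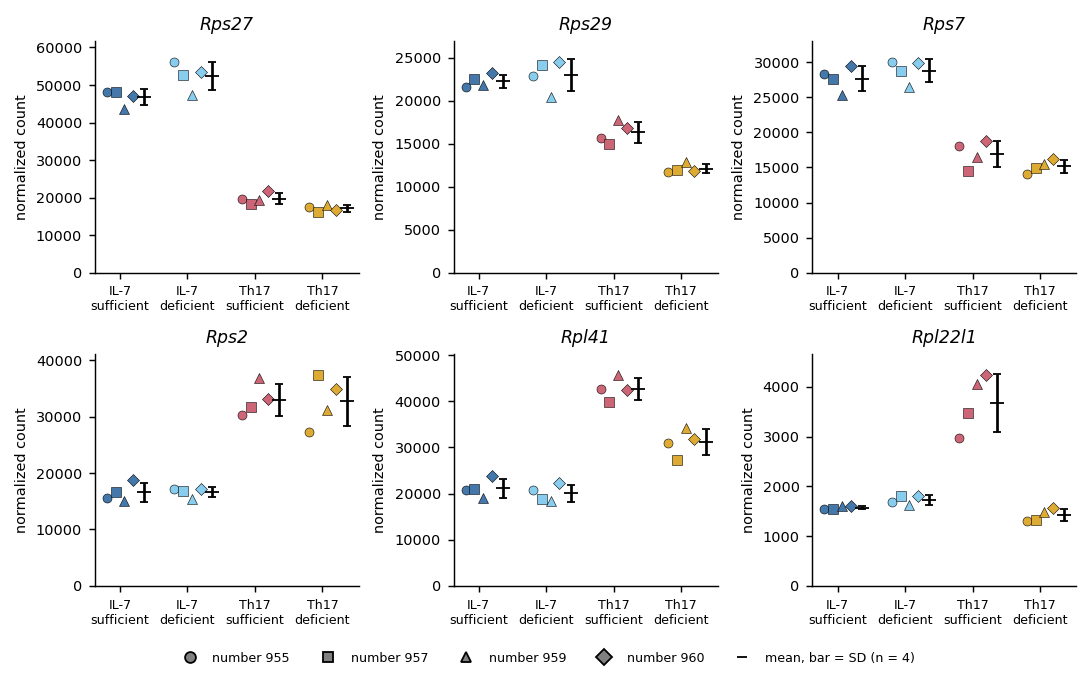
Normalized counts of 6 members in each of the 16 libraries by group, with marker shape for the library number and the mean and SD of 4 libraries in black. Rps27, Rps29 and Rps7 are lower in both Th17 groups, Rps2 and Rpl41 are higher, and Rpl22l1 is high in the Th17 sufficient group alone, at 2967 to 4238.

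In deficient cells fewer subunit genes rose and more fell than in sufficient cells, and the Th17 deficient libraries entered the choice of members. On polarization 16 of the 68 subunit genes rose and 33 fell (23.5% and 48.5%), against 27.8% and 52.4% of named rows and 37.9% and 41.5% of all rows, so both shares are near those of named rows. In 15 members all polarized libraries lay above all IL-7 libraries and in 30 all lay below (25.8% and 49.8% of named rows). The median log2 change was -0.19, and it was -0.36 for named rows. All 16 that rose also rose in sufficient cells, and all 18 that fell in sufficient cells fell here. A further 15 fell in deficient cells alone, 10 rose in sufficient cells alone, and 9 passed in neither comparison (among them Rpl11, Rpl13, Rpl26, Rpl32, Rpl38 and Rps9). No subunit gene had opposite calls. Every member was chosen as lower in Th17 deficient than in Th17 sufficient cells, while the IL-7 differences were mostly small (median 0.0099). The choice thus favours fewer rises and more falls in deficient cells, and this nesting of calls is not a separate result. A call in a single comparison does not show that the changes differ, and the difference was not tested because it uses the contrast behind the choice.

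By subunit, 4 of 27 small subunit genes rose and 19 fell (median -0.44), and 12 of 41 large subunit genes rose and 14 fell (median -0.025). With the 5 named genes outside the rule, 5 of 29 small subunit genes rose and 20 fell (median -0.38). Of 44 large subunit genes, 12 rose and 16 fell (median -0.061). Rps27 again fell most, from 56185, 52648, 47263 and 53342 to 17375, 16128, 18147 and 16731 normalized counts (-1.61, SE 0.075, limma adjusted p = 2.09e-12). Rps29 fell from 22906, 24168, 20436 and 24515 to 11658, 11956, 12865 and 11818 (-0.93, SE 0.072, limma adjusted p = 1.47e-09), Rps7 from 30076, 28775, 26457 and 29968 to 14044, 14875, 15523 and 16257 (-0.93, limma adjusted p = 9.21e-09), and Rpl30 from 16506, 16223, 14396 and 16469 to 8359.7, 8667, 8893 and 9268 (-0.85, limma adjusted p = 4.65e-09). Polarized and IL-7 libraries did not overlap in any of these 4 genes. Rps24 had 26682, 24300.2, 26380.1 and 29075 in the Th17 sufficient and 21189.7, 19521, 22720.4 and 22299.7 in the Th17 deficient libraries, with log2 changes of -0.28 and -0.79 on polarization.

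Rps2 had near-equal rises in both states, and Rpl29 (0.53 in sufficient and 0.46 in deficient cells) rose similarly. For Rps2 this largely restates the contrast behind the choice, where its difference (-0.018) was the nearest to 0. Its deficient libraries had 17147, 16827, 15336 and 17135 normalized counts in IL-7 and 27260.3, 37373, 31267 and 34881 after polarization, a log2 change of 0.97 (SE 0.10, limma adjusted p = 4.32e-08) beside 0.99 in sufficient cells. Rpl41 rose from 20741, 18861, 18401 and 22383 to 31001, 27369, 34299.6 and 31721 (0.63, SE 0.088, limma adjusted p = 3.31e-06). Rpl13a rose from 949.8, 865, 888 and 869.6 to 1143, 1102, 1211 and 1113 (0.35, limma adjusted p = 0.000566). The polarized values of these 3 genes all lay above the IL-7 values of deficient cells.

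Smaller rises in deficient cells included Rpl3, with 23147, 26013, 26950.4 and 27297 normalized counts after polarization (0.36), Rpl15, with 12148, 10603, 12179.6 and 12558 in Th17 sufficient and 10444, 10827, 11409.6 and 11676 in Th17 deficient libraries (0.41 in deficient cells), and Rpl10a, with 17243, 15337, 17245 and 18196 and 13519, 13682, 14573 and 13929 (0.18, limma adjusted p = 0.0209). The call for Rpl10a was lost without BASALTAM957, BASALTAM959 or D3TAM959, and without all libraries that share the number of BASAL957 or of BASAL959, at adjusted p of 0.0596 to 0.154. Rpl24 fell to 36.9, 39.2, 23.0 and 29.3 (-0.83, limma adjusted p = 0.0039).

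Rpl27a, Rpl7 and Rpl10 changed least in deficient cells, with log2 changes of 0.024, 0.011 and 0.0072, and all 3 rose in sufficient cells (0.29, 0.25 and 0.37). Rpl10, a late-joining protein near the P site, had 17425, 18256, 16810.1 and 22742 normalized counts in IL-7 sufficient, 17251, 18382, 16712 and 19448 in IL-7 deficient, 24499.5, 22099, 24079 and 25878 in Th17 sufficient and 16819, 17900.4, 17662 and 19773 in Th17 deficient libraries. Rpl27a had 15679, 15976, 13634 and 18225, then 15919.5, 15661, 14127 and 16592, 19275, 16949, 19057 and 22094 and 15055, 15064, 15824 and 17417 in the same order of groups. Rpl7 had 27303, 26695, 24001 and 29795, then 28509.7, 27409.8, 25264 and 28401, 33269, 29542, 31394 and 34246 and 26318, 26656, 27681 and 29789. For Rpl27a, Rpl7 and Rpl10 the Th17 deficient values lay inside or close to the IL-7 range. The rise of Rpl27a in sufficient cells was lost without BASAL959 and the 3 libraries that share its number (log2 change 0.22, limma adjusted p = 0.0751).

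The 3 members with little change above had these polarized values. Rpl38 had 8055, 7476, 8419.8 and 9276 in Th17 sufficient and 6243, 7375, 7399 and 8047 in Th17 deficient libraries. Rpl13 had 16337, 15867, 17586 and 19639 and 12303, 18590.5, 15436 and 14225, and a fall in deficient cells (-0.19, limma adjusted p = 0.088) came past the threshold only without D3TAM957 or without all 4 libraries of that number (-0.30 and -0.27). Rpl35a had 10433, 10586, 9959 and 11192 in IL-7 deficient and 8149, 8365, 8848 and 10137 in Th17 deficient libraries and fell there (-0.25, limma adjusted p = 0.0118), a call that was lost with recomputed size factors (-0.19, adjusted p = 0.0565) and without the 4 libraries that share the number of BASAL955 or of BASAL957.

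Compared per length, Rps15, a protein of the small subunit head, had the highest level, with 52011 normalized counts per kilobase of exonic sequence as a mean over the 16 libraries, followed by Rpl36 (32996) and Rps27 (32583). The median over subunit genes was 12702 per kilobase for the small and 7801 for the large subunit. Rpl24 (54.2 per kilobase) and Rpl13a (587) lay lowest, and every other subunit gene had a mean of at least 6091 normalized counts. Exonic length here is the union of all annotated exons, which overstates genes with long minor isoforms, and reads shared with pseudogene copies may be lost or split, since how such reads were counted is not stated. Rps15 had 36576, 36191, 31941 and 35870.1 normalized counts in IL-7 sufficient and 31856, 28872, 31255 and 34033 in Th17 sufficient libraries (-0.16, limma adjusted p = 0.0759). In deficient cells it fell from 40809, 37357, 33599 and 39039 to 24774, 26438, 27655 and 28009 (-0.49, limma adjusted p = 1.49e-05).

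The share of all restored reads that the 121 settled members took together was 6.20, 6.25, 5.73 and 6.73 percent in the IL-7 sufficient and 6.51, 6.34, 5.91 and 6.80 percent in the IL-7 deficient libraries. It was 6.75, 6.00, 6.55 and 7.04 percent in the Th17 sufficient and 5.48, 5.53, 5.80 and 5.75 percent in the Th17 deficient libraries. The IL-7 groups and the Th17 sufficient group overlap widely, and the Th17 deficient group, whose members were chosen as lower, lies lowest, overlapping in the IL-7 groups only BASAL959. Pseudogenes took 0.0168 to 0.0274 percent of reads.

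Within the family the make-up changed with polarization in a way that does not depend on how libraries were scaled. Small subunit genes made up 49.4, 49.3, 49.4 and 48.7 percent of the normalized counts of the 68 subunit genes in IL-7 sufficient and 50.2, 49.9, 49.8 and 49.7 percent in IL-7 deficient libraries. They made up 44.9, 44.8, 44.8 and 44.2 percent in Th17 sufficient and 45.1, 44.8, 44.6 and 44.7 percent in Th17 deficient libraries. Every polarized library lay below every IL-7 library, and the Th17 groups overlapped each other. The IL-7 groups did not overlap: every deficient library lay above every sufficient one (49.7 to 50.2 against 48.7 to 49.4 percent). This difference was not tested. Rpsa, Fau, Rplp0, Rplp1 and Rplp2 fall outside the rule and are not in these shares.

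Rps27 alone gave 3.45, 3.48, 3.48 and 3.11 percent of the subunit counts in IL-7 sufficient and 3.86, 3.73, 3.68 and 3.57 percent in IL-7 deficient libraries. After polarization it gave 1.35, 1.40, 1.33 and 1.40 percent in sufficient and 1.52, 1.35, 1.44 and 1.30 percent in deficient libraries. The IL-7 deficient libraries lay above the IL-7 sufficient ones, while the Th17 groups overlapped. Rps2 gave 1.12, 1.20, 1.20 and 1.24 percent in IL-7 sufficient and 2.08, 2.43, 2.55 and 2.13 percent in Th17 sufficient libraries. In deficient cells its share was 1.18, 1.19, 1.19 and 1.15 percent in IL-7 and 2.38, 3.13, 2.49 and 2.70 percent after polarization.

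**Figure D3:**
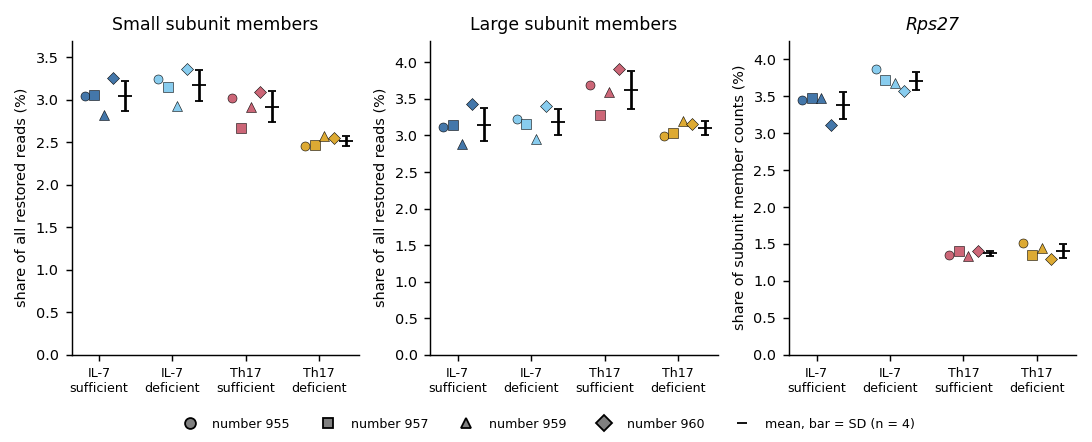
Share of all restored reads taken by the small and the large subunit genes (left and middle, percent) and share of Rps27 in the normalized counts of the 68 subunit genes (right, percent), in each of the 16 libraries, with the mean and SD of 4 libraries in black. Rps27 lies at 3.11 to 3.86 percent in IL-7 and at 1.30 to 1.52 percent in Th17 libraries.

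Of the 4 paralogs and retrogenes, 3 changed on polarization. Rpl22l1 encodes a paralog of Rpl22 that can take its place in the ribosome. It had 1548, 1544, 1596 and 1615 normalized counts in IL-7 sufficient and 1678, 1815, 1618 and 1807 in IL-7 deficient libraries (0.13, limma adjusted p = 0.504). The deficient libraries all lay above the sufficient ones, narrowly (lowest 1618, highest 1615), as in 3.82% of named rows. Rpl22l1 rose to 2967, 3469.6, 4059 and 4238 on polarization of sufficient cells (1.21, SE 0.095, limma adjusted p = 1.99e-09) and fell to 1305, 1330.2, 1485 and 1575 in deficient cells (-0.28, SE 0.095, limma adjusted p = 0.011). Every Th17 sufficient library lay above and every Th17 deficient library below its IL-7 group, though the fall was lost without BASAL957 and the 3 libraries that share its number (-0.23, limma adjusted p = 0.110). The contrast between the polarized groups is part of the choice of members and was not tested.

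Rpl22 itself, named after its values were seen because it is the partner of Rpl22l1, rose in both states. It had 11488, 11542, 10389 and 13778 normalized counts in IL-7 sufficient and 16336, 14726, 15937 and 18246 in Th17 sufficient libraries (0.47, limma adjusted p = 9.51e-05). In deficient cells it had 12361, 11970.4, 11030.4 and 13307 in IL-7 and 14752, 15419.96, 16279 and 16796 after polarization (0.38, limma adjusted p = 0.000716). For each 100 counts of Rpl22 there were 13.5, 13.4, 15.4 and 11.7 counts of Rpl22l1 in IL-7 sufficient and 13.6, 15.2, 14.7 and 13.6 in IL-7 deficient libraries. There were 18.2, 23.6, 25.5 and 23.2 in Th17 sufficient and 8.85, 8.63, 9.12 and 9.37 in Th17 deficient libraries. Neither Th17 group overlapped the IL-7 groups in this ratio. The order of the Th17 groups is part of the choice of members, since Rpl22l1 is named only because it is lower in the deficient one.

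Rps27rt, a retrogene copy of Rps27, had 541, 505, 349 and 363 normalized counts in IL-7 sufficient and 571, 341, 405 and 422 in IL-7 deficient libraries. It fell to 169, 122, 195 and 160.2 in Th17 sufficient (-1.43, SE 0.18, limma adjusted p = 1.02e-06) and to 120.3, 128, 157 and 122 in Th17 deficient libraries (-1.70, SE 0.18, limma adjusted p = 9.95e-08). It held 1.12, 1.05, 0.800 and 0.772 counts for each 100 of Rps27 in IL-7 sufficient libraries, and reads of the parent gene may be counted on it. Its own level is therefore uncertain.

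Rpl36al, a paralog of Rpl36a, had 47.3, 52.96, 53.1 and 82.0 normalized counts in IL-7 sufficient, 53.2, 58.98, 52.3 and 43.5 in IL-7 deficient, 98.8, 114, 121 and 157 in Th17 sufficient and 85.2, 103, 111 and 119 in Th17 deficient libraries. It rose on polarization in both states (1.06 and 0.99, SE 0.19 each, limma adjusted p = 6.93e-05 and 0.000125), while Rpl36a was not called in sufficient cells and fell in deficient cells. Rpl37rt had 751, 696, 639 and 643 in IL-7 sufficient, 599.9, 511, 524 and 607 in IL-7 deficient, 618, 696, 743 and 697 in Th17 sufficient and 518, 531, 747 and 543 in Th17 deficient libraries and passed in no comparison. Its IL-7 deficient libraries all lay below the IL-7 sufficient ones (-0.28, SE 0.11, limma adjusted p = 0.161).

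Pseudogenes were far lower, with means of 6.78 to 475 normalized counts and a median of 46.9 over the 49 settled ones. Reads on them can stem from the parent genes, and some may be joined to a wrong row, so their levels are uncertain. None of the 46 tested passed limma in the IL-7 comparison, and 6 lay at an unadjusted p under 0.05 with limma and 7 with limma voom. Among named rows, 1100 of 6129 lay at an unadjusted p under 0.05 with limma. Their median difference was -0.22, and the median standard error was 0.24 beside 0.082 for the subunit genes. On polarization 4 of the 46 rose and 6 fell in sufficient cells, against 39.9% and 37.2% of named rows, and 3 rose and 14 fell in deficient cells, against 27.8% and 52.4%. The parent gene named by the symbol had a call in the same direction for 10 of the 10 called in sufficient cells. In deficient cells the parent was tested for 15 of the 17 called, and 13 had a call in the same direction. Of the other 2, Rpl13a-ps1 fell (-0.96, limma adjusted p = 0.0402) while Rpl13a rose, and Rpl34-ps1 rose (0.55, limma adjusted p = 0.0205) while Rpl34 was not called. Among the pairs with the same direction, Rps16-ps2, Rps24-ps3 and Rpl5-ps1 fell in both states and so did Rps16, Rps24 and Rpl5, while Rpl3-ps2 and Rpl10a-ps1 rose in both as did Rpl3 and Rpl10a. All these pairs were named after their values were seen.

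Per-library values of the pseudogenes with the greatest or least differences show how few counts lie behind them. Rps2-ps9 had 0, 7.01, 0.843 and 5.92 normalized counts in IL-7 sufficient, 2.85, 5.28, 8.25 and 7.91 in IL-7 deficient, 8.89, 30.7, 51.3 and 41.8 in Th17 sufficient and 7.03, 13.3, 16.3 and 12.9 in Th17 deficient libraries. It rose in sufficient cells (3.19, SE 0.62, limma adjusted p = 0.000136), in the direction of Rps2. Rpl5-ps1 had 29.1, 27.3, 20.2 and 17.8, then 19.01, 18.5, 28.4 and 31.6, 6.91, 14.3, 15.7 and 13.5 and 8.78, 7.50, 21.1 and 6.89 in the same order of groups. Its falls of 0.88 in sufficient and 1.17 in deficient cells on the log2 scale had adjusted p of 0.0267 and 0.00467 in limma. The call in sufficient cells was lost on leaving out BASAL955, BASAL957, D3955, or all libraries that share the number of BASAL955 or of BASAL957 (adjusted p 0.0666 to 0.221), and the call in deficient cells on leaving out BASAL960 and the 3 libraries that share its number (adjusted p = 0.0604).

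The other named pseudogenes passed in no comparison. Rpl10-ps3 had 80.7, 98.9, 70.8 and 48.2 in IL-7 sufficient, 71.3, 28.2, 38.5 and 45.5 in IL-7 deficient, 56.3, 57.3, 99.1 and 67.7 in Th17 sufficient and 32.5, 27.5, 56.5 and 12.9 in Th17 deficient libraries. Rpl19-ps1 had 18.3, 13.2, 11.8 and 24.5, 19.96, 28.2, 22.9 and 34.6, 39.5, 19.4, 23.5 and 20.3 and 29.9, 18.3, 17.2 and 17.2. Rpl28-ps1 had 159, 162, 129 and 94.7, 123, 65.1, 80.7 and 97.8, 137, 163, 209 and 182 and 105, 82.5, 149 and 66.3. These 3 had IL-7 differences of -0.72, 0.63 and -0.57, within groups that overlapped. Rpl38-ps2 had 430.4, 421, 338 and 407, 434, 300.2, 359 and 402, 364, 428, 354 and 441 and 328, 298, 389 and 327, and Rpl17-ps10 had 17.2, 10.9, 16.01 and 10.99, 24.7, 6.16, 15.6 and 7.91, 16.8, 6.14, 13.9 and 22.6 and 4.39, 10.0, 6.71 and 9.47. Both were among the members with the least change in sufficient cells (-0.0072 and 0.0031).

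Other genes of translation could be followed only where the table names them, that is, where the authors list them as lower in Th17 deficient cells. Of 19 genes for elongation factors and other TOP messages, 9 are named and 8 were tested. None passed in IL-7 cells, 5 rose and 1 fell on polarization of sufficient cells (39.9% and 37.2% of named rows), and 4 rose and 1 fell in deficient cells (27.8% and 52.4% of named rows). The gene that fell was Tpt1, a growth-related TOP message, with log2 changes of -0.51 in sufficient and -1.09 in deficient cells. Hnrnpa1, an RNA-binding splicing factor (1.05 and 0.70), and Btf3, of the nascent polypeptide-associated complex (0.92 and 0.81), rose most. In IL-7 cells Tpt1 (0.21), Gnb2l1 (0.10), Btf3 (-0.12) and Hnrnpa1 (-0.056) had the greatest differences, at limma adjusted p of 0.231 to 0.748.

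Of 32 initiation factor genes, 13 are named and tested, and 10 rose and 2 fell on polarization of sufficient cells, beside 39.9% and 37.2% of named rows. In deficient cells 8 rose and 4 fell, beside 27.8% and 52.4%. Eif5a, whose protein carries the hypusine modification and relieves stalled ribosomes, fell by 0.42 in IL-7 cells (SE 0.12, limma adjusted p = 0.0473), the only member of the list to pass there. It had 14567, 16199, 13987 and 20707 normalized counts in IL-7 sufficient and 12149, 11167, 11853 and 13111 in IL-7 deficient libraries. It rose on polarization in both states (1.35 and 1.72), as did Eif2s2, the beta subunit of eIF2 (1.54 and 1.36). Eif4g3, a scaffold of cap-dependent initiation (-0.35 and -0.76), and Eif4g2 (-0.27 and -0.29) fell in both, and the helicase gene Eif4a2 fell in deficient cells (-0.69) and was not called in sufficient cells (0.077). In IL-7 cells Eif4a1 (-0.22, limma adjusted p = 0.0799), Eif2s2 (0.04) and Eif4a2 (0.035) did not pass.

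Of 59 ribosome assembly factors, 3 (5.08%) are named, beside 92.4% of the ribosomal protein family and 47.9% of all rows. A name reflects the contrast behind the choice, so these shares are not a separate result. The 59 genes and the family were counted whether or not they have a row, while the share of rows counts only rows present. Npm1, a nucleolar chaperone, rose by similar amounts in both states (1.37 and 1.36). Taf1d, of the RNA polymerase I initiation factor, rose (0.69 and 0.24), and Sbds, which frees the large subunit for joining, fell (-0.24 and -0.60). In IL-7 cells their differences were -0.083, -0.047 and 0.044, and none passed. A gene without a name can be higher in Th17 deficient cells, filtered by the authors or listed under another symbol, and these cannot be told apart from the table. Of 18 genes of mTORC1 and Myc control, 3 are named and 2 were tested. Mlst8, a subunit of the mTOR complexes, fell in IL-7 deficient cells (-0.36, SE 0.091, limma adjusted p = 0.0306) and on polarization (-0.70 and -1.76), while Rheb, which activates mTORC1, did not pass (-0.12 in IL-7 cells, -0.041 and -0.066 on polarization).

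Between libraries of the same group the subunit genes shifted together. In BASAL960, 66 of the 68 lay above their group mean, and in BASAL959, 2 did. In the IL-7 deficient group the counts were 66 in BASALTAM960 and 1 in BASALTAM959. In Th17 sufficient cells 67 lay above in D3960 and none in D3957, and in Th17 deficient cells 60 lay above in D3TAM960, 61 in D3TAM959 and 5 in D3TAM955. The median log2 deviation of a library from its group mean reached 0.14 in BASAL960 and -0.15 in BASAL959, about as large as the median change on polarization. Counts above the mean are relative to other libraries of the group, and the shared shift means that the 68 genes are not independent measurements. Leaving out all 4 libraries that share the number of BASAL959 or of BASAL960 left the counts of members called on polarization within 1.5 times of those given above.

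**Figure D4:**
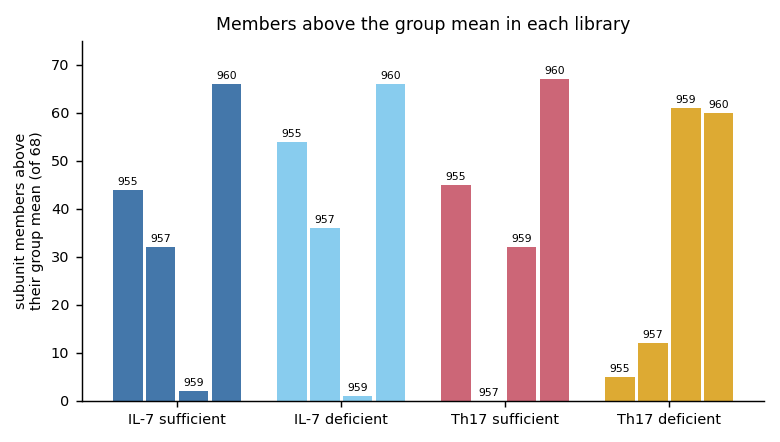
Number of the 68 subunit genes above their group mean (log2 normalized count) in each of the 16 libraries, with the library number over each bar. BASAL960, BASALTAM960, D3960 and D3TAM960 have 60 to 67 members above the mean, while BASAL959 has 2, BASALTAM959 has 1 and D3TAM959 has 61.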

How the data were processed

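Poly(A) RNA of 16 libraries (4 groups of 4) was sequenced as stranded libraries on a NextSeq2000, per the labels' protocols. Per the submitters' processing notes, Trim Galore 0.4.4, STAR 2.6, featureCounts, edgeR and DESeq2 and mouse build NCBIM37 were used. Their settings are not given in the sources read here. The authors' deposited table gives, per the file headers, the authors' log2 fold change and its standard error for each of 8552 named genes, and normalized counts for 16 libraries over 17850 rows in another order. The deposited counts had lost the decimal point. Each is a whole number of reads times 1 step per library (99.993% of nonzero values within a relative tolerance of 1e-09), and 8.58% were raised by a power of 10 so that the libraries of a group fit together. Rows with a posterior of at least 0.95 (14464 rows, 81.0%) counted as settled. For rows joined to a name this was required in the IL-7 groups only. Their powers of 10 in the Th17 groups were those that gave the authors' log2 fold change, and 291 genes were joined on next-best powers. A name was joined to the row that gave the authors' log2 fold change within 1e-06, with the next row 20 times farther off: 7643 genes (89.4%), and 18 of 1000 decoys with shifted fold changes. For the 68 subunit genes the difference was at most 7.11e-09, and up to 5 of 16 values of a gene were raised. Over all joined members the difference reached 8.72e-07, so some joins outside the subunit genes may be wrong. The restoring and the fits were tested on simulated data.

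Restored totals of 19757730 to 28624131 reads set the precision of low genes. limma 3.58.1 (R 4.3.3) with a mean-variance trend was fitted on log2(normalized count + 1) to all 16 libraries, over 13218 settled rows with a mean of at least 10. Fold changes of low genes are understated on this scale. P-values were adjusted over all these rows by Benjamini-Hochberg with a threshold of 0.05. Same-numbered libraries of the IL-7 groups deviated together (correlations 0.104 to 0.452), least for number 957. The main fit takes no account of a pairing by number. A fit with the number as a block is given among the alternatives. Between IL-7 and Th17 libraries the correlations were 0.0492 to 0.116 in sufficient and 0.0299 to 0.192 in deficient cells, and not all exceed 0.1. Exonic lengths came from GENCODE M21 and promoter sequences from RefSeq. Python 3.11.15 was used.

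Members and gene lists were chosen with earlier results of these data known. Named members are, per comparison, the 5 with the greatest and 3 with the least absolute change among all members, also the 5 greatest among subunit genes, the paralogs, and the member highest per kilobase, while other pseudogenes are given by counts and range. A test of the read share over libraries was planned and is given as values only. Alternatives were other pseudocounts, filters, scalings, limma voom, fewer groups, a replicate block, unsettled rows and libraries left out. Some genes of the family are not reported by name here.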

Additional observations from a re-analysis of the deposited data

Results flagged for a closer look

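In 124 groups of 4 libraries, 6 held a library far from the other 3, judged by its gap to the nearest over the group's range, and chance gives about 1 in 20. These were Rpl19-ps1 in the Th17 deficient library D3TAM955 (29.9 normalized counts, the others 17.2 to 18.3), Rpl36al in the IL-7 sufficient library BASAL960 (82.0, the others 47.3 to 53.1) and Rpl5-ps1 in D3TAM959 (21.1, the others 6.89 to 8.78). Rpl30 had 14396 in BASALTAM959, with the others at 16223 to 16506, and Rpl37rt had 747 in D3TAM959, with the others at 518 to 543. Rps15 had 31941 in BASAL959, with the others at 35870.1 to 36576.

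Rpl22l1 was picked out because every sufficient library lay higher after polarization (log2 change 1.21) and every deficient library lay lower (-0.28). The difference between these changes was not tested, because the polarized groups also chose the members.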

How the results depend on the processing

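The changes of the 30 named members and the counts and medians of the subunit genes were recomputed under 30 alternatives, 20 of which leave out libraries. The read share was recomputed under 5. Other results, among them those for Eif5a, Mlst8, Rpl22 and the pseudogenes given only by counts, were not followed under these alternatives. The count of subunit genes called on Sin3A loss in IL-7 cells was 0 in each direction under all 30. On polarization of sufficient cells the 26 genes that rose became 19 to 28 and the 18 that fell 13 to 21, and in deficient cells the 16 that rose became 11 to 18 and the 33 that fell 28 to 35, all within 1.5 times. The median log2 change ranged from -0.039 to 0.062 in IL-7 cells, from 0.043 to 0.16 in sufficient and from -0.26 to -0.12 in deficient cells, so the direction on polarization was kept and the IL-7 median lay on both sides of 0. With the number as a replicate block, 26 rose and 19 fell in sufficient cells and 18 rose and 35 fell in deficient cells, and 0 passed in IL-7 cells with 6 at an unadjusted p under 0.05, so the block changed no count by over 1.5 times. With recomputed median-of-ratios size factors the medians were 0.16 and -0.13. The mean read share of all members moved by less than 1 SD without pseudogenes and paralogs or without any library. Of 90 changes of 30 named members, 78 stayed on the same side of the threshold under every alternative, 12 crossed it under some, and 0 reversed. Beside those named above, Rps2-ps9 in deficient cells passed when only the 2 groups compared were fitted (0.95, limma adjusted p = 0.0374). In deficient cells Rpl10-ps3 passed without D3TAM959 (-0.90) or all libraries of its number (-0.96), and Rpl17-ps10 without those that share the number of BASAL957 (-1.04). In sufficient cells Rpl19-ps1 passed without BASAL960 (0.75) or all of its number (0.84), and Rps15 without BASAL959 (-0.20) or D3960 (-0.20). The cause was not tested. In IL-7 cells the median standard error was 0.24 for the pseudogenes, beside 0.082 for the subunit genes, and Rpl24 had 0.24. The part of sequencing depth in this was not tested.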
